A study of Homo sapiens with 18 samples.

Results

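The genes described here are 38 interferon-stimulated genes, chosen by exact match of their symbol to a fixed list of members, and all 38 were found among the 31004 genes of the count table. RNA was sequenced from HCT116, an established colorectal carcinoma cell line, in 18 libraries that form 6 groups of 3 biological replicates. Each group is named by its stable lentiviral background (Ctrl for the control vector, CRLM1 for a long noncoding RNA that was overexpressed, Antisense for the reverse sequence) and by what was then transfected (hnRNPK for a plasmid encoding that RNA- and DNA-binding protein, NC for its control). All backgrounds came from puromycin-selected cells, so a background and its selected line cannot be told apart, and whether a line is a clone is not stated in the sources used here. CRLM1 is listed under the symbol RP4-710M16.2.

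Interferons are secreted proteins that a cell makes when receptors in its cytoplasm or endosomes detect foreign RNA or DNA. Type I and type III interferons act through receptors and the kinases JAK1 and TYK2 on genes with an interferon-stimulated response element, whereas interferon gamma acts mainly on genes with GAS elements. Many of the induced genes can also be switched on by IRF3 or IRF1 without secreted interferon, and their products block viral entry, sense or degrade viral RNA, or help to present antigens.

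Total counts ranged from 19732681 to 27039520 per library. The epithelial markers EPCAM, KRT8, KRT18, KRT19 and CDH1 lay between 83.3 and 3823 CPM, counts scaled to the normalised library size, in all libraries. PTPRC, PECAM1, CDH5, VWF, COL3A1 and PDGFRB, which define leukocytes, endothelial cells and fibroblasts, did not exceed 0.404 CPM in any library, while COL1A1 lay between 11.2 and 32.8 CPM and CD68 between 0.777 and 4.63 CPM. CRLM1 had 0 counts in all libraries of both Ctrl groups, which allows up to 0.165 CPM in the shallowest library. It measured 608, 601 and 587 CPM in the libraries of CRLM1_NC and 50.0, 49.5 and 50.0 CPM in those of Antisense_NC, where sense and antisense reads cannot be told apart without strand. The third library of Ctrl_hnRNPK and that of CRLM1_hnRNPK stood apart: each correlated less with the other libraries of its own group (r of log2 CPM across genes 0.957 to 0.962 and 0.952 to 0.956) than with the NC libraries of its background (0.981 to 0.983 and 0.976 to 0.977). The study set both aside, and since that choice rests on the measured profiles, the member comparisons and expressed sets that use them are given with and without them.

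Levels of different genes were compared in FPKM, in which fragments are scaled for transcript length as well as depth. In Ctrl_NC, which carried the control vector and the control plasmid, the highest members included genes of antiviral or antigen-presenting function and a transcription factor. IFITM3, a membrane protein that blocks viral fusion, measured 289 ± 7.81 FPKM (SD, n = 3), and ISG15, a ubiquitin-like modifier, measured 218 ± 14.0 FPKM. They were followed by IFITM2 at 96.3 ± 2.31 FPKM, the peptide transporter subunit TAP1 at 71.4 ± 1.67 FPKM, the transcription factor IRF1 at 32.9 ± 0.477 FPKM and IFI6 at 22.3 ± 1.47 FPKM. Each of these 6 exceeded the next member in all libraries. Below them the order was less certain: in 23 of the 37 neighbouring pairs the ranges of the 3 libraries overlapped, among them OAS3 (10.65 FPKM) with UBE2L6 (10.5 FPKM), and all pairs from IFIT5 down to IRF9. IFIT5 measured 0.193 ± 0.0416 FPKM, IFIT2 0.1 ± 0.0300 FPKM, IFIT3 0.0933 ± 0.0643 FPKM and IFIT1 0.0567 ± 0.0404 FPKM, so the 4 IFIT genes were near the bottom of the order in these cells.

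**Figure D1:**
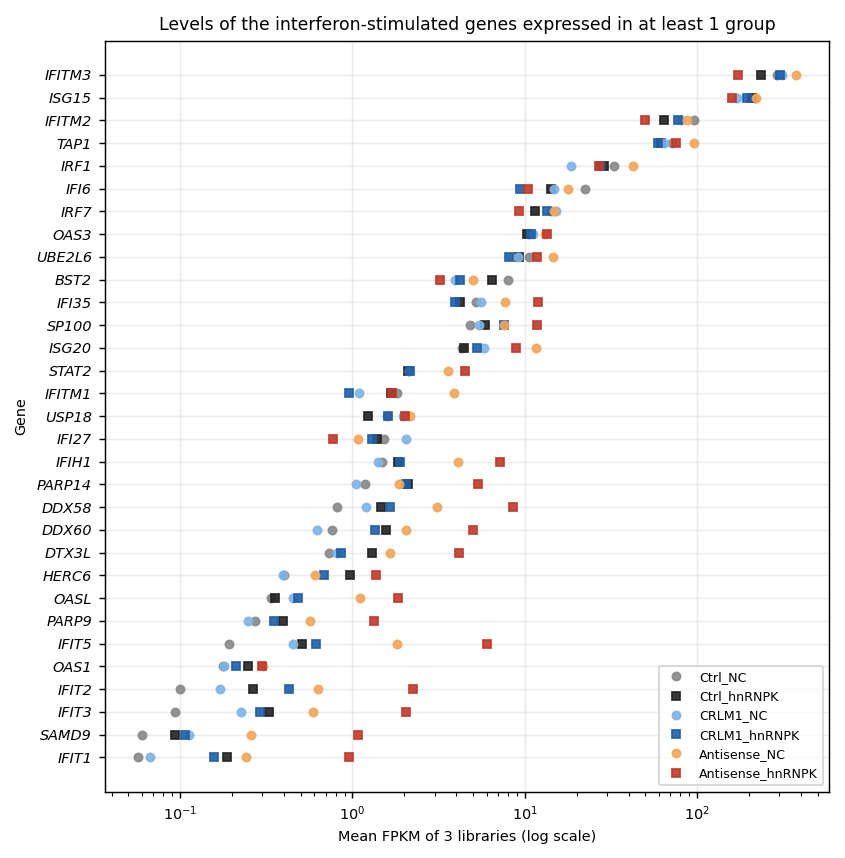
Mean FPKM of 3 libraries on a log scale for the 31 members expressed in at least 1 group, ordered by their level in Ctrl_NC, with circles for NC groups and squares for hnRNPK groups. IFITM3, ISG15, IFITM2 and TAP1 lie at or above 49.8 FPKM in all 6 groups, and the IFIT genes and SAMD9 have their highest points in Antisense_hnRNPK.

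A member was counted as expressed in a group when all 3 libraries had at least 1 CPM, and as not detected when no library of the group exceeded 3 counts. By this rule the NC groups expressed 25 (Ctrl), 26 (CRLM1) and 28 (Antisense) members, and the hnRNPK groups of these backgrounds 25, 27 and 29. The 22 members expressed in all 6 groups were STAT2, IRF1, IRF7, IFIH1, DDX58, DDX60, IFITM2, IFITM3, OAS3, BST2, ISG20, ISG15, UBE2L6, HERC6, USP18, PARP9, DTX3L, PARP14, SP100, TAP1, IFI6 and IFI35. With all libraries another 9 were expressed in some groups. IFIT3 and SAMD9 met the rule in both Antisense groups and no other, IFIT1 in Antisense_hnRNPK alone, and IFIT2 in both Antisense groups and CRLM1_hnRNPK. IFIT5 met it in all groups except Ctrl_NC, IFITM1 in all except CRLM1_hnRNPK, and OASL in all except Ctrl_hnRNPK. OAS1 was expressed in Ctrl_hnRNPK and CRLM1_hnRNPK, and IFI27 in Ctrl_NC, CRLM1_NC and CRLM1_hnRNPK. Without the third library of each, an alternative added after the data were seen, 28 members were expressed in Ctrl_hnRNPK, with IFIT1, SAMD9 and IFI44 added, and 28 in CRLM1_hnRNPK, with SAMD9 added. SAMD9 measured 1.17, 1.05 and 0.302 CPM in Ctrl_hnRNPK and 1.23, 1.03 and 0.625 CPM in CRLM1_hnRNPK. Being under 1 CPM in 1 library thus decided some of these, and the sets describe the rule and are not tests.

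With all libraries the 7 members expressed in no group were IRF9, OAS2, MX1, TRIM22, IFI44, IFI44L and EPSTI1. IFI44L had at most 3 counts in each of the 18 libraries. IRF9, a transcription factor of the interferon response, did not exceed 0.268 CPM. A second gene on the same strand overlaps IRF9 in the annotation and measured 4.56 to 24.9 CPM. How reads in shared exons were assigned is not given in the sources used here, so the IRF9 level is uncertain. MX1, a dynamin-like GTPase that traps viral nucleocapsids, was under 1 CPM in all but 2 libraries, both of Antisense_hnRNPK.

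Other members share genome with a neighbour as well, and whether reads were counted by strand is not stated. IFIT1, IFIT2 and IFIT3 overlap LIPA on the opposite strand (26.2 to 53.1 CPM), PARP9 and DTX3L overlap each other on opposite strands, TAP1 overlaps PSMB9 (18.8 to 50.5 CPM), and TRIM22 overlaps TRIM5 (15.7 to 27.3 CPM). IFITM1, IFITM2 and IFITM3 are related in sequence, and the authors counted uniquely mapped reads, so the split between them is uncertain.

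The promoters of 31 members were found in the RefSeq promoter table (GRCh38.p14), with DDX58 matched under its current symbol RIGI. The core of the interferon-stimulated response element was searched as GAAA, any 2 bases and GAAA on both strands, overlapping matches included, in the 250 bases before the start site. It occurred in 19 of the 31 members and in 3.07% of 27305 promoters. The GAS element, searched as TTC, any 3 bases and GAA, occurred in 10 of the 31 and in 6.78% of all promoters. The sequences below are shown because these members carry the results that follow, some higher and some lower; capitals mark the matches to the core, and each is written 5′ to 3′ on the strand of its gene. The first group holds members that rose in the Antisense background.
IFIT1 (chr10:89392492-89392544, plus strand): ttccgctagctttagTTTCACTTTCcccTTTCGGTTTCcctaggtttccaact
IFIT3 (chr10:89327826-89327899, plus strand): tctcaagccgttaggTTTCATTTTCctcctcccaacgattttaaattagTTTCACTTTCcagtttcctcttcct
IFIT5 (chr10:89414508-89414567, plus strand): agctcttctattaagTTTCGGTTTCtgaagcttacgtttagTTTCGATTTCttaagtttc
IFIH1 (chr2:162318685-162318858, minus strand): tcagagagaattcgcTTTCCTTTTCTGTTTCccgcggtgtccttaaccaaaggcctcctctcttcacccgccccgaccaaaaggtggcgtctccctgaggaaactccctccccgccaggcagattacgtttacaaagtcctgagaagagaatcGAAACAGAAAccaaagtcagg
SAMD9 (chr7:93118091-93118130, minus strand): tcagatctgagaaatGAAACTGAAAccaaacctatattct
PARP14 (chr3:122680795-122680834, plus strand): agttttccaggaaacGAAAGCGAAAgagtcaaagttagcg
The second group holds members that fell with the hnRNPK construct in that background or were lower in both CRLM1_NC and Antisense_NC than in Ctrl_NC. It follows the changes before the GC trend was removed (described below). With that trend removed ISG15 did neither at an adjusted p of at most 0.05.
IFITM3 (chr11:320871-320927, minus strand): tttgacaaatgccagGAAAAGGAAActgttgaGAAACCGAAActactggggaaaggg
IFI6 (chr1:27672261-27672363, minus strand): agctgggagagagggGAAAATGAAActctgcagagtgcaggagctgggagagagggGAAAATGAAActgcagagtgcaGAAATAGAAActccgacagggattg
BST2 (chr19:17405730-17405775, minus strand): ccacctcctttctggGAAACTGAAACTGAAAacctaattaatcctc
ISG15 (chr1:1013369-1013414, plus strand): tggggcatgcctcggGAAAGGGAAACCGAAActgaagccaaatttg
Only members with a match are printed, so both groups hold the core by choice. In IFIH1, BST2 and ISG15 copies of it overlap. Of the members called higher (rule below) in Antisense_NC against Ctrl_NC, 7 of the 8 with a promoter entry held a match. With the hnRNPK construct in the Antisense background, 6 of 9 called higher and 3 of 3 called lower did. DDX58, MX1 and DTX3L were called higher there without a match. A match describes the sequence and does not show that a factor binds there.

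The Antisense background was compared with the control vector first. In bulk RNA a change in the level per cell and a change in the share of cells that express a gene cannot be told apart. Of 33 tested members 21 were higher at an adjusted p of at most 0.05, against 34.4% of all genes tested, and 5 were lower, against 32.2%. Differential expression was called when the change was also at least 2-fold. A lack of overlap between the libraries of compared groups is stated below for named members. Its share over all genes was not counted, so it describes these values and adds no test. The 10 members called higher were IFIT1, IFIT2, IFIT3, IFIT5, IFIH1, DDX58, DDX60, OASL, SAMD9 and ISG20, a share of 30.3% of the members tested against 7.19% of all genes. None was called lower, against 6.94% of all genes, and at an unadjusted p under 0.05 the lower members numbered 5 with edgeR and 5 with DESeq2. The median log2 fold change was 0.42 over the members and -0.00246 over all genes tested.

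The IFIT proteins, which bind viral RNA through tetratricopeptide repeats and limit its translation, had log2 fold changes from 1.91 to 2.95, and all 4 were called higher. IFIT5 (ENSG00000152778.8, chromosome 10, 89414568 to 89421605, plus strand) measured 0.937, 1.40 and 1.03 CPM in Ctrl_NC and 10.6, 8.10 and 8.70 CPM in Antisense_NC. All Antisense_NC libraries lay far above the highest Ctrl_NC library, a 7.73-fold difference (log2 fold change 2.95, SE 0.20, edgeR adjusted p = 1.38e-15). IFIT2 measured 0.661, 0.360 and 0.490 CPM in Ctrl_NC and 2.71, 3.42 and 2.15 CPM in Antisense_NC, a log2 fold change of 2.43 (SE 0.33). IFIT3 measured 0.441, 0.520 and 0.0892 CPM against 1.98, 1.69 and 2.25 CPM, a log2 fold change of 2.42 (SE 0.40). IFIT1 measured 0.551, 0.0400 and 0.535 CPM against 0.948, 1.77 and 1.48 CPM, a log2 fold change of 1.91 (SE 0.46). The groups did not overlap for any of the 4, although the second Ctrl_NC library had a single IFIT1 count. Summed over the 4 genes, the level was 2.35 ± 0.226 CPM in Ctrl_NC and 15.3 ± 0.862 CPM in Antisense_NC (SD, n = 3).

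The RNA sensors rose together. DDX58, which encodes RIG-I, the receptor of short triphosphate-ended RNA, measured 5.45, 5.48 and 4.15 CPM in Ctrl_NC and 17.0, 17.0 and 17.0 CPM in Antisense_NC, a 3.27-fold difference (edgeR adjusted p = 1.47e-14). IFIH1, which encodes MDA5, the receptor of long double-stranded RNA, measured 9.14, 9.60 and 8.25 CPM against 20.2, 23.4 and 21.4 CPM, a 2.32-fold difference. DDX60, a helicase linked to RIG-I signalling, measured 6.39, 6.24 and 7 CPM against 15.7, 16.6 and 14.1 CPM, a 2.29-fold difference. In each of the 3 genes the lowest Antisense_NC library was above the highest of Ctrl_NC. The DDX60 change was 0.87 on the log2 scale once the trend of change with GC content had been removed in each library, and was then under 2-fold.

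Among the effectors, SAMD9, a growth and virus restriction factor, measured 0.881, 0.560 and 0.267 CPM in Ctrl_NC and 2.41, 3.04 and 1.23 CPM in Antisense_NC (log2 fold change 1.96, SE 0.38). ISG20, an exonuclease that degrades single-stranded RNA, measured 13.1, 13.9 and 12.7 CPM against 31.4, 29.6 and 33.5 CPM (log2 fold change 1.2, SE 0.09). OASL, a member of the oligoadenylate synthetase family without synthetase activity, measured 2.09, 1.44 and 1.16 CPM against 4.39, 5.19 and 4.04 CPM (log2 fold change 1.51, SE 0.23). None of the 3 overlapped between groups. The other OAS genes did not pass the test: OAS3 had a log2 fold change of 0.07 and OAS1 of 0.54, and OAS2 was too low to be tested.

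Smaller increases passed the adjusted p without reaching 2-fold in 11 members. They were 0.51 on the log2 scale for STAT2, 0.13 for IRF1, 0.87 for IFITM1, 0.15 for IFITM3, 0.24 for the ISG15-conjugating enzyme UBE2L6, 0.83 for PARP9, 0.93 for its partner ubiquitin ligase DTX3L, 0.44 for PARP14, 0.42 for the nuclear body protein SP100, 0.19 for TAP1 and 0.33 for IFI35. The 5 members that were lower were BST2 (-0.92), which encodes tetherin, IFI27 (-0.76), IFI6 (-0.56), ISG15 (-0.23) and IRF7 (-0.18). With the GC trend removed, ISG15 (0.0053, adjusted p = 0.911) and PARP14 (0.22, adjusted p = 0.0661) no longer passed, OAS3 passed upward (0.14), and IRF7 turned to 0.17 and passed upward (edgeR adjusted p = 0.0185). Median GC content was 43.4% for the members that rose, 57.3% for those that fell and 49.1% for all genes tested, and across genes the log2 fold change had a Spearman correlation with GC content of -0.30 (n = 14223) and, over the members, of -0.51 (n = 33). These points share the same 6 libraries. After removal of the trend 9 members were called higher, against 5.91% of all genes, and none lower, against 6.53%, and the median of the members was 0.32.

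**Figure D2:**
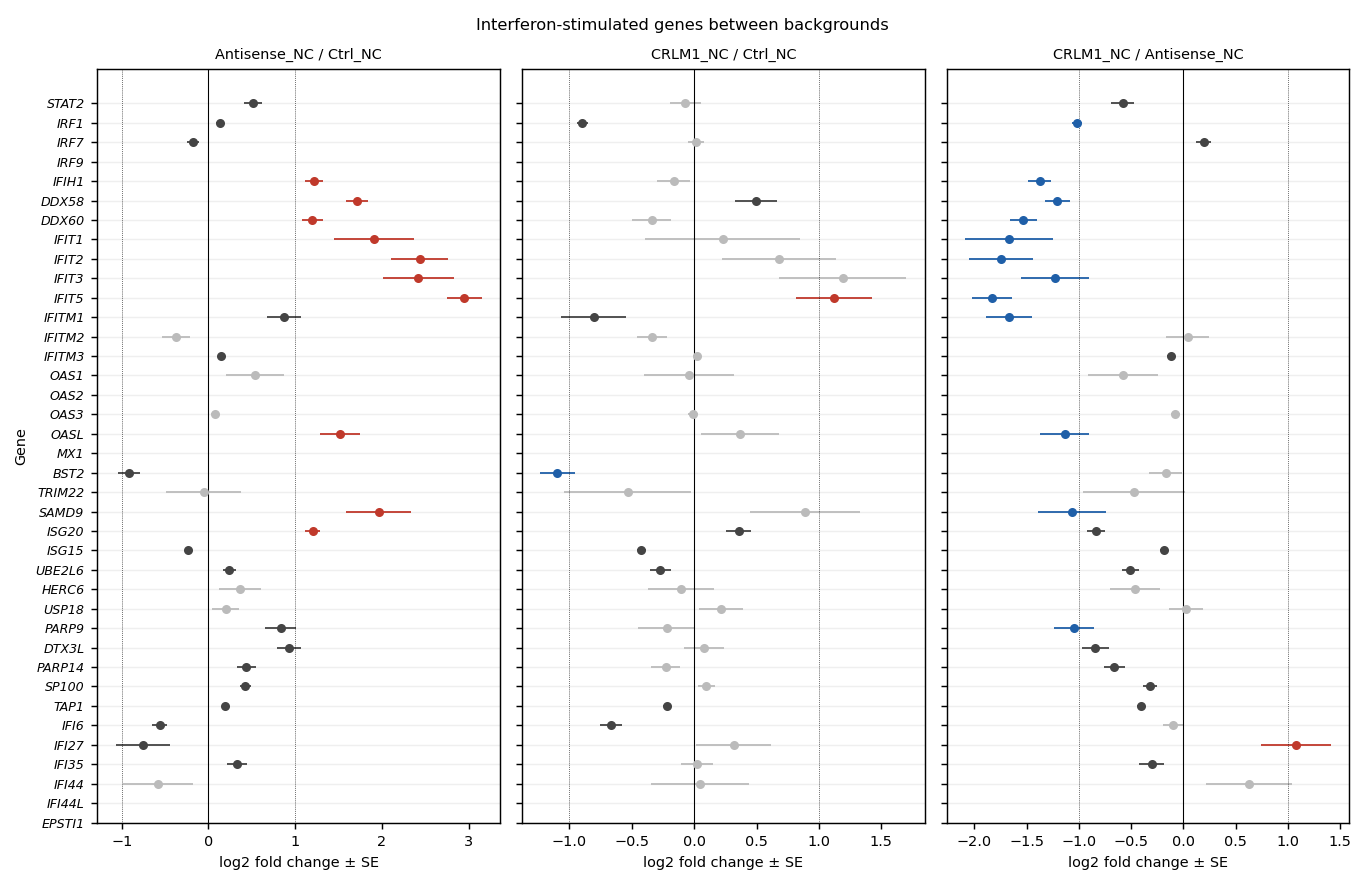
Log2 fold change with its SE for each tested member in the 3 comparisons between backgrounds under NC (dotted lines: 2-fold; red: called higher; blue: called lower; dark grey: adjusted p at most 0.05 only; light grey: neither; members without a point were too low to be tested). The 10 red points of Antisense_NC against Ctrl_NC lie between 1.2 and 2.95, whereas CRLM1_NC against Ctrl_NC has a single red and a single blue point.

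CRLM1_NC was next compared with Ctrl_NC, where CRLM1 overexpression and the selected line cannot be told apart, and few members were called. IFIT5 was called higher, 3.03% of the 33 tested against 0.775% of all genes, and BST2 was called lower, against 0.809%. The median log2 fold change of the members was -0.01. IFIT5 measured 1.75, 3.54 and 2.19 CPM in CRLM1_NC against 0.937, 1.40 and 1.03 CPM in Ctrl_NC (log2 fold change 1.12, SE 0.31, edgeR adjusted p = 0.00382). The groups did not overlap, but without the second CRLM1_NC library the change was 0.78 with an adjusted p of 0.0929. BST2, which holds budding virions at the cell surface, measured 5.17, 6.26 and 5.20 CPM against 11.1, 12.7 and 11.3 CPM, a 2.14-fold lower level (edgeR adjusted p = 3.03e-08). Both remained called with the GC trend removed.

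At the adjusted p alone, 3 members were higher, against 16.9% of all genes, and 7 were lower, against 17.4%. Besides IFIT5, DDX58 (0.50 on the log2 scale) and ISG20 (0.36) were higher. IRF1, a transcription factor of the interferon response, measured 102, 99.7 and 88.6 CPM in CRLM1_NC and 177, 182 and 176 CPM in Ctrl_NC. Its log2 fold change was -0.90 (SE 0.04, edgeR adjusted p = 2.86e-19). It had the smallest p of the members, and all CRLM1_NC libraries were far below all Ctrl_NC libraries. The others were IFITM1 (-0.80), IFI6 (-0.67), ISG15 (-0.42), UBE2L6 (-0.27) and TAP1 (-0.22).

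The study used the Antisense line as a second control, and against it CRLM1_NC had lower levels of many members. Of 33 tested, 12 were called lower, 36.4% against 3.17% of all genes, and IFI27 alone was called higher, against 4.01%. At the adjusted p alone 22 were lower, against 29.5%, and 2 higher, against 26.9%. The members called lower were IRF1, IFIH1, DDX58, DDX60, IFIT1, IFIT2, IFIT3, IFIT5, IFITM1, OASL, SAMD9 and PARP9, with a median over all members of -0.58. With the GC trend removed 9 were called lower, against 2.65% of all genes, and IFI27 higher, against 3.98%. DDX58 (-0.98), SAMD9 (-0.77) and PARP9 (-0.93) were then under 2-fold, and IRF7, which had passed upward (0.20), turned to -0.01 and did not pass. This comparison shares libraries with both comparisons above, so the values of both are given side by side. IFIT5 had -1.83 for CRLM1_NC against Antisense_NC and 1.12 for CRLM1_NC against Ctrl_NC. IFIT2 had -1.75 and 0.68, IFIH1 -1.38 and -0.16, and DDX60 -1.53 and -0.34, and none of these 3 passed the test against Ctrl_NC as counted. With the GC trend removed DDX60 was lower against Ctrl_NC too, at under 2-fold (-0.41, edgeR adjusted p = 0.0391). IRF1 was lower against both controls, -1.02 and -0.90, and so was IFITM1, -1.67 and -0.80.

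IFITM1 measured 1.66, 1.41 and 1.63 CPM in CRLM1_NC, 5.69, 5.53 and 4.04 CPM in Antisense_NC and 2.64, 2.32 and 3.17 CPM in Ctrl_NC, an order in which no groups overlapped. PARP9, a macrodomain protein that acts with DTX3L, measured 2.65, 3.13 and 2.09 CPM in CRLM1_NC and 6.12, 5.74 and 4.86 CPM in Antisense_NC. IFI27 measured 1.98, 1.27 and 3.67 CPM against 0.775, 1.14 and 1.43 CPM, with overlapping ranges. The IFI27 change was 0.59 without the third CRLM1_NC library (edgeR adjusted p = 0.174) and 0.87 without the first of Antisense_NC. The call of SAMD9, whose ranges also overlapped, was lost without the first or the third CRLM1_NC library or the second of Antisense_NC, where its change lay between -0.92 and -0.79, and without the last of these its adjusted p was 0.0914. OASL was at -0.85 without the second CRLM1_NC library, IRF1 at -0.96 and PARP9 at -0.91 without the third, and PARP9 at -0.97 without the first of Antisense_NC, all under 2-fold.

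HNRNPK, the gene of the construct, was checked in every library before the hnRNPK comparisons. In the Ctrl background it measured 463, 471 and 479.7 CPM with NC and 617, 644 and 491 CPM with the construct. The corresponding levels were 461, 454 and 455 CPM and 671, 713 and 571 CPM for CRLM1, and 432, 434 and 424 CPM and 540.1, 532 and 583 CPM for Antisense. All hnRNPK libraries were above the NC libraries of their background, the third one of Ctrl_hnRNPK by the least. The log2 fold change was 0.35 in the Antisense background (edgeR adjusted p = 0.000839), and in the Ctrl and CRLM1 backgrounds 0.29 and 0.56 with all libraries (adjusted p = 0.362 and 0.533) and 0.44 and 0.65 without the third hnRNPK library of each (9.91e-07 and 1.97e-12).

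In the Antisense background the hnRNPK construct went with changes of members in both directions. Of 34 tested, 10 were called higher, 29.4% against 7.28% of all genes, and 4 were called lower, 11.8% against 6.1%. At the adjusted p alone 16 were higher, against 33.4%, and 12 lower, against 30.5%. The members called higher were IFIT1, IFIT2, IFIT3, IFIT5, DDX58, DDX60, SAMD9, MX1, DTX3L and PARP14, and those called lower were IFITM1, IFITM2, IFITM3 and IFI6. The median log2 fold change was 0.38 over the members and 0.04 over all genes, and with the trend of change with GC content removed it was 0.0549 and 0.011.

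The 4 IFIT genes, already higher in Antisense_NC than in Ctrl_NC, were higher again. IFIT5 measured 23.3, 25.8 and 27.9 CPM in Antisense_hnRNPK (log2 fold change 1.48 against Antisense_NC, SE 0.13, edgeR adjusted p = 3.19e-07). IFIT2 measured 7.50, 9.62 and 7.83 CPM (1.58, SE 0.19), IFIT3 5.38, 5.77 and 6 CPM (1.53, SE 0.19) and IFIT1 3.45, 4.70 and 5.84 CPM (1.72, SE 0.27). Each Antisense_hnRNPK library was above each Antisense_NC library for all 4, and their summed level was 44.4 ± 4.2 CPM (SD, n = 3). DDX58 measured 34.0, 44.4 and 39.6 CPM (log2 fold change 1.21) and DDX60 26.1, 31.4 and 39.8 CPM (1.06). IFIH1 measured 28.0, 30.9 and 37.2 CPM, also above Antisense_NC, with a change of 0.56 that passed the adjusted p but was under 2-fold.

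SAMD9 measured 7.12, 10.9 and 5.42 CPM in Antisense_hnRNPK (log2 fold change 1.79, SE 0.31). DTX3L measured 20.3, 32.2 and 24.9 CPM against 10.7, 13.3 and 12.2 CPM (1.09), and PARP14, a mono-ADP-ribosyltransferase, 33.8, 51.6 and 48.3 CPM against 18.3, 18.2 and 19.6 CPM (1.25). No library overlapped between the groups in these 3 genes. MX1 measured 0.341, 2.11 and 1.56 CPM against 0.302, 0.422 and 0.563 CPM (1.66, SE 0.55). Its ranges overlapped, and the call rested on few reads: the edgeR adjusted p was 0.0807 without the second Antisense_hnRNPK library, and 0.0687 and 0.0563 without the first and the second of Antisense_NC. DTX3L was under 2-fold without the second Antisense_hnRNPK library (0.86), as was DDX60 without the third (0.85) or the third of Antisense_NC (0.99).

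The IFITM proteins, small membrane proteins that restrict viral entry, moved the other way in all 3 members. IFITM3 measured 572, 577 and 575 CPM in Antisense_NC and 221, 175 and 277 CPM in Antisense_hnRNPK, a 2.58-fold lower level (edgeR adjusted p = 6.04e-07). IFITM2 measured 128, 91.4 and 129 CPM against 59.8, 46.8 and 61.9 CPM, 2.08-fold lower, and IFITM1 5.69, 5.53 and 4.04 CPM against 1.63, 1.43 and 2.61 CPM, 2.73-fold lower. IFI6, a mitochondrial and endoplasmic reticulum protein with antiviral activity, measured 18.4, 19.1 and 20.4 CPM against 10.2, 8.29 and 10.4 CPM, 2.02-fold lower. None of the 4 overlapped. Without the second Antisense_hnRNPK library IFITM2 was at -0.97 and IFI6 at -0.95, and single Antisense_NC libraries also took IFITM2 (the first, -0.99, or the third, -0.98) and IFI6 (the third, -0.98) under 2-fold. Changes under 2-fold that passed the adjusted p were -0.89 for IRF1, -0.93 for IRF7, -0.89 for BST2, -0.70 for ISG15, -0.65 for ISG20, -0.60 for TAP1, -0.56 for UBE2L6 and -0.21 for OAS3. Upward ones were 0.98 for PARP9, 0.93 for HERC6, a ligase related to the one that attaches ISG15, 0.88 for TRIM22, 0.56 for IFIH1, 0.47 for OASL and 0.38 for SP100. With the GC trend removed, of these smaller changes IRF1, ISG20, PARP9, HERC6 and OASL still passed. IRF7 (-0.20), BST2 (-0.39), ISG15 (-0.03), TAP1 (-0.11), UBE2L6 (-0.07), OAS3 (-0.05), IFIH1 (0.14) and TRIM22 (0.20) did not, nor did SP100, which turned to -0.12. USP18 (-0.76) and IFI35 (0.92) passed only with the trend removed.

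**Figure D3:**
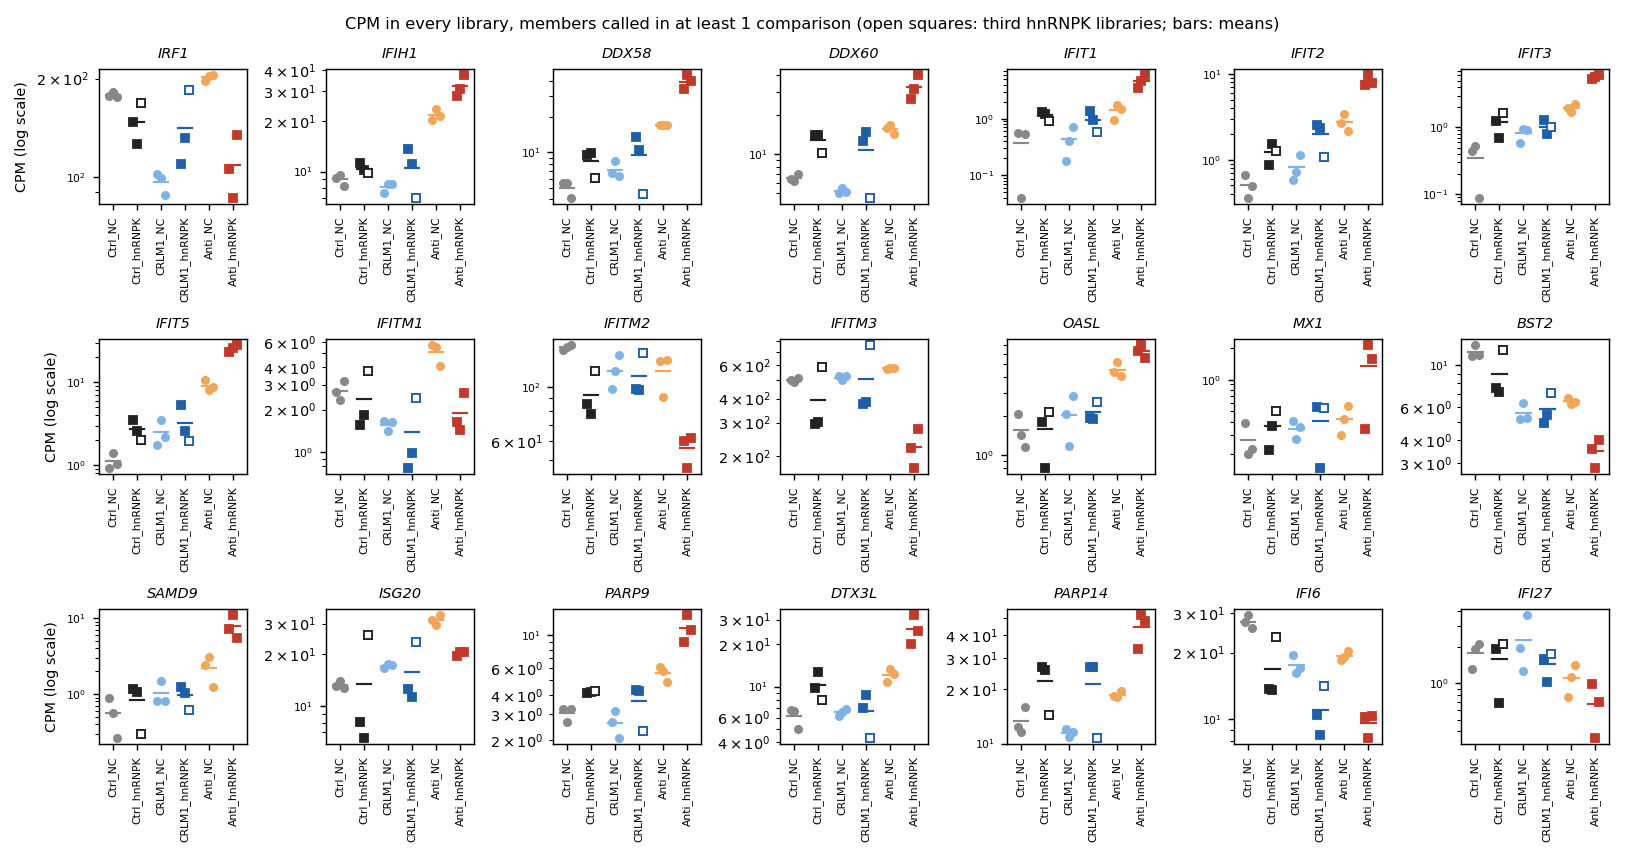
CPM in every library, on a log scale, of the 21 members called in at least 1 comparison with all libraries (circles: NC; squares: hnRNPK construct; bars: means of 3; open squares: the third libraries of Ctrl_hnRNPK and CRLM1_hnRNPK, which stood apart). For IFIT5 the libraries rise from 0.937 to 1.40 CPM in Ctrl_NC to 23.3 to 27.9 CPM in Antisense_hnRNPK, and IFITM2 and IFITM3 have their lowest points in that group.

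Base composition moved with these changes. Across all genes tested in the Antisense background the log2 fold change of the hnRNPK comparison had a Spearman correlation of -0.71 with GC content (n = 14337), and over the members of -0.77 (n = 34). Median GC content was 42.3% for the members that rose, 57.0% for those that fell and 48.8% for all genes. When the trend was removed in each library, 4 members were called higher (IFIT1, IFIT2, IFIT3 and SAMD9), against 2.89% of all genes, and IFITM1 alone was called lower, against 1.69%. Their log2 fold changes were then 1.24, 1.13, 1.10, 1.10 and -1.03. IFIT5 (0.81), IFITM3 (-0.81), PARP14 (0.78) and DTX3L (0.71) kept their direction and an adjusted p under 0.05 at under 2-fold. The same held for DDX58 and DDX60, which were higher, and for IFITM2 and IFI6, which were lower. MX1 (1.15, edgeR adjusted p = 0.121) did not pass. The part of base composition in the uncorrected changes beyond this was not tested.

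**Figure D4:**
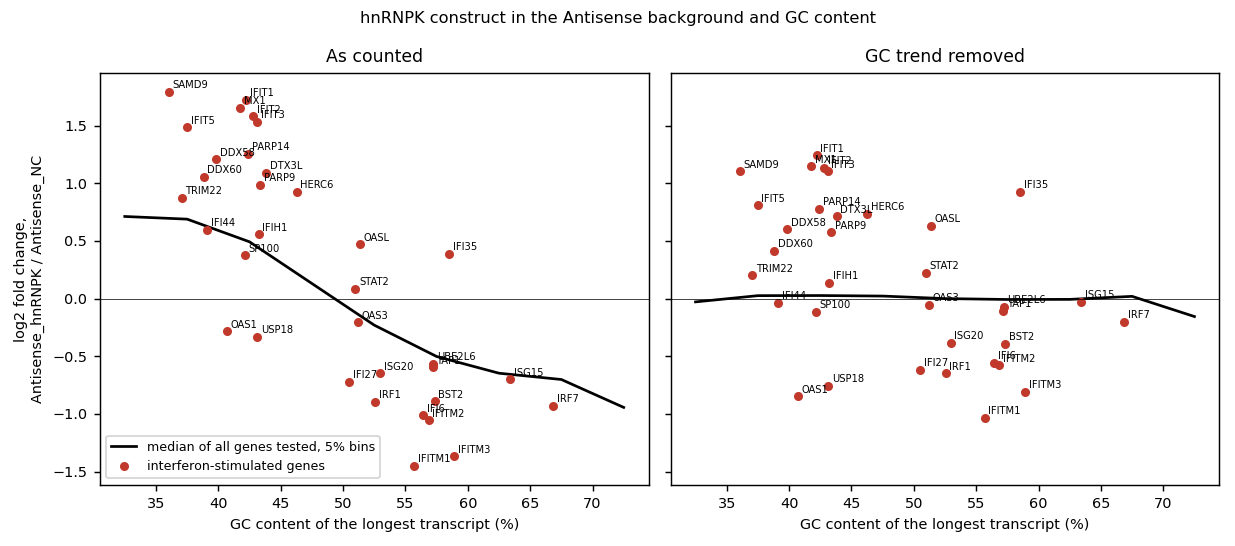
Log2 fold change of each member in Antisense_hnRNPK against Antisense_NC by the GC content of its longest transcript in percent, as counted (left) and with the GC trend removed in each library (right); the line is the median of all genes tested in bins of 5% GC. On the left the line falls from left to right and members lie on both sides of it, and on the right the 4 IFIT genes and SAMD9 remain between 0.81 and 1.24 while the 3 IFITM genes lie between -1.03 and -0.58.

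In the Ctrl background no member was called with all 3 hnRNPK libraries, nor was any gene (0% of 14607 in either direction), and the lowest adjusted p of a member was 0.32. At an unadjusted p under 0.05 there were 11 members with edgeR and 11 with DESeq2, 9 of them higher and 2 lower with either tool, and 7 with limma on log2 FPKM. Without the third library, 7 members were called higher, against 5.17% of all genes, and none lower, against 1.71%. At the adjusted p alone 11 were then higher, against 29.6%, and 14 lower, against 29.9%. The 7 were DDX60, IFIT1, IFIT2, IFIT3, IFIT5, HERC6 and IFI44.

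HERC6 measured 1.60, 2.16 and 2.90 CPM in Ctrl_NC and 4.92, 7.47 and 2.52 CPM in Ctrl_hnRNPK, so the third hnRNPK library lay inside the NC range (log2 fold change 1.14 with it and 1.49 without). DDX60 measured 14.1, 14.0 and 10.1 CPM in Ctrl_hnRNPK, all above Ctrl_NC (0.94 and 1.12). IFIT1 measured 1.34, 1.21 and 0.907 CPM (1.64 and 1.84), IFIT3 1.25, 0.687 and 1.66 CPM (1.72 and 1.47) and IFIT5 3.54, 2.59 and 2.01 CPM (1.24 and 1.45). The IFIT genes of all 3 hnRNPK libraries were above all Ctrl_NC libraries, so their direction did not rest on the third library, whereas their adjusted p did. IFIT2 measured 0.864, 1.54 and 1.26 CPM (1.27 and 1.30). IFI44 measured 0.771, 0.880 and 0.847 CPM in Ctrl_NC and 1.64, 2.22 and 0.504 CPM in Ctrl_hnRNPK (0.80 and 1.23), with the third library below the NC range.

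The CRLM1 background gave a like count. With all libraries no member was called, against 0% of 14394 genes in either direction, and 5 members had an unadjusted p under 0.05 with edgeR, 5 with DESeq2 and 2 with limma. Without the third CRLM1_hnRNPK library 5 members were called higher, against 3.07% of all genes, and none lower, against 2.23%, while 11 were higher and 7 lower at the adjusted p alone, against 29.5% and 29.1%. The 5 were DDX60, IFIT1, IFIT2, HERC6 and PARP14. PARP14 measured 12, 10.8 and 11.6 CPM in CRLM1_NC and 26.5, 26.7 and 10.8 CPM in CRLM1_hnRNPK, where the third library was just below the NC range (log2 fold change 0.95 with it and 1.26 without). DDX60 measured 5.03, 5.49 and 5.15 CPM against 12.6, 14.8 and 4.64 CPM (1.09 and 1.44). IFIT2 measured 0.584, 0.726 and 1.12 CPM against 2.52, 2.31 and 1.07 CPM (1.33 and 1.63), IFIT1 0.180, 0.408 and 0.714 CPM against 1.37, 0.934 and 0.580 CPM (1.21 and 1.48) and HERC6 2.29, 1.63 and 2.40 CPM against 5.35, 3.34 and 1.83 CPM (0.79 and 1.10). For all 5 genes the third hnRNPK library lay inside the NC range or below it.

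GC content moved with these changes as well. Without the third hnRNPK libraries of Ctrl and CRLM1 its Spearman correlation with the log2 fold change over the 33 members was -0.73 in the Ctrl background and -0.72 in the CRLM1 background, and over all genes -0.74 (n = 14811) and -0.76 (n = 14514). In the same order of backgrounds, median GC content was 42.2% and 42.4% for members higher at the adjusted p, and 57.0% and 57.2% for lower ones. A fit without these libraries and with the GC trend removed was not run.

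**Figure D5:**
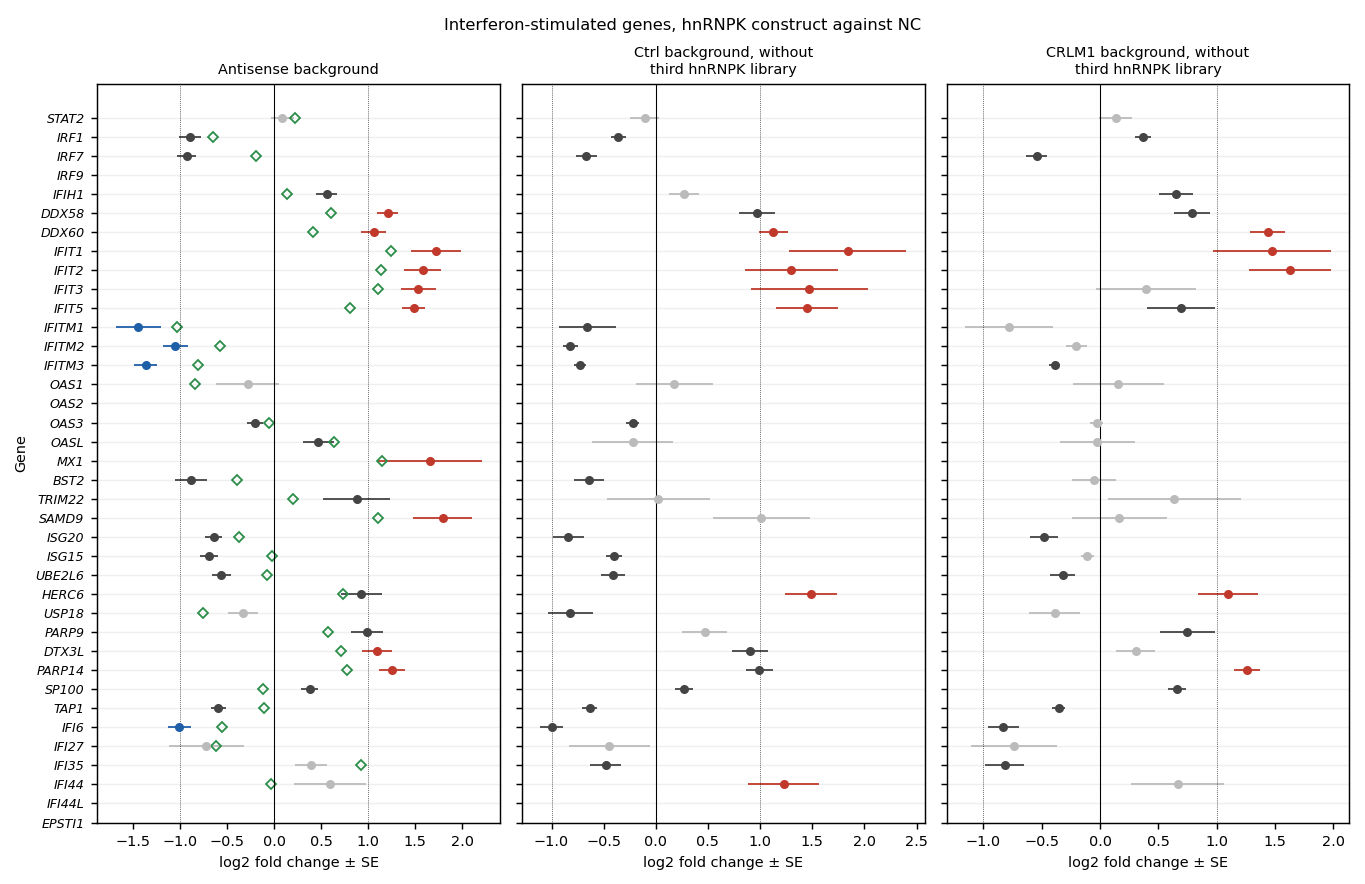
Log2 fold change with its SE of each tested member for the hnRNPK construct against NC in the 3 backgrounds, the Ctrl and CRLM1 backgrounds without the third hnRNPK library of each (colours as for the backgrounds; open green diamonds: Antisense background with the GC trend removed). DDX60, IFIT1 and IFIT2 are red in all 3 panels, and the IFITM genes lie below 0 in each; with all libraries IFITM3 is at 0.01 in the CRLM1 background.

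Whether the hnRNPK difference itself differed between backgrounds was tested as an interaction. With all libraries 1 of 34 members passed, IRF1 in the CRLM1 background minus the Antisense background, with a log2 difference of 1.47 (SE 0.26, edgeR adjusted p = 0.027), in a test that 0.807% of all genes passed in the positive direction. IRF1 measured 109.6, 132 and 184 CPM in CRLM1_hnRNPK, all above the CRLM1_NC range, and 106, 86.8 and 135 CPM in Antisense_hnRNPK, all below the 197, 204 and 205 CPM of Antisense_NC. Without the third CRLM1_hnRNPK library the difference was 1.27 (SE 0.18, adjusted p = 0.000203). No member passed for the CRLM1 background minus the Ctrl background or for the Antisense background minus the Ctrl background (0% of all genes in each), where 2 and 6 members had an unadjusted p under 0.05 with edgeR and with DESeq2.

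Without the third hnRNPK libraries of Ctrl and CRLM1 8 members passed for CRLM1 minus Antisense. The 5 positive ones were IRF1, IFITM2 (0.87), IFITM3 (0.99), BST2 (0.85) and ISG15 (0.60), against 12% of all genes, and the 3 negative ones were SAMD9 (-1.61), DTX3L (-0.77) and IFI35 (-1.19), against 5.41%. For CRLM1 minus Ctrl, IRF1 (0.76), IFITM2 (0.64), IFITM3 (0.37) and SP100 (0.42) passed upward, against 3.36%, and none downward, against 0.0904%. For Antisense minus Ctrl, IFI35 (0.85) passed upward, against 2.85%, and IRF1 (-0.55) and IFITM3 (-0.65) downward, against 3.77%. The IFIT genes, whose increases were called in several backgrounds, passed in none of these differences.

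Other genes of the interferon pathway, 58 in fixed lists, place the members in context. Of 8 interferon ligands IFNA1 was not found in the count table, and the other 7 were too low to be tested and did not exceed 7 counts in any library. In Antisense_NC against Ctrl_NC 21 of 39 tested pathway genes were higher at the adjusted p, against 34.4% of all genes, and 9 lower, against 32.2%. The groups below are read against the same shares. All 6 receptor genes were tested, and 4 were higher, among them IFNGR1 (log2 fold change 1.11) and IFNAR1 (0.72), subunits of the receptors for interferon gamma and type I interferon. Of the 9 tested sensor and adaptor genes 5 were higher, including the kinase TBK1 (1.44), which activates IRF3, and the double-stranded RNA receptor TLR3 (0.99), and 3 were lower, including TMEM173 (-0.55), which encodes STING. All 5 inhibitors were higher, such as SOCS1 (0.48) and IRF2 (0.70). Of 24 other interferon-induced genes 14 were tested, with 5 higher and 5 lower, and MX2, RSAD2, XAF1, RTP4, CXCL10 and CXCL11 did not exceed 7 counts in any library.

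In CRLM1_NC against Ctrl_NC 3 of 39 pathway genes were higher, against 16.9% of all genes, and 9 lower, against 17.4%. Against Antisense_NC 4 of 40 were higher, against 26.9%, and 23 lower, against 29.5%. With the hnRNPK construct in the Antisense background 18 of 40 were higher, against 33.4%, and 11 lower, against 30.5%. Higher ones included JAK2 (0.93), TBK1 (0.87) and TLR3 (1.16), and B2M (0.46), the light chain of class I molecules. Lower ones included PML (-1.33), TYK2 (-0.94), TICAM1 (-0.94), TMEM173 (-0.64), IFNLR1 (-0.59) and SOCS1 (-0.50). These pathway values are as counted, and the part of base composition in them was not tested. In the Ctrl and CRLM1 backgrounds 0 of 39 passed with all libraries, as no gene did with edgeR, while 15.4% and 9.25% of all genes had an unadjusted p under 0.05. Without the third hnRNPK library 16 were higher and 15 lower in the Ctrl background, against 29.6% and 29.9% of all genes, and 14 and 9 in the CRLM1 background, against 29.5% and 29.1%.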

How the data were processed

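Total RNA of 18 HCT116 cultures was sequenced as paired-end reads. The authors aligned reads to GRCh38 with TopHat2, allowing 4 mismatches, took uniquely mapped reads by Gencode v23 genes, and deposited raw read counts per gene. They also deposited FPKM values per gene, scaled by the authors for gene length and depth. Tool versions and the strand setting of the counting are not given in the sources used here. Groups followed the labels. Pairs of groups were compared on the counts with edgeR 4.0.16 (R 4.3.3; TMM, filterByExpr, robust quasi-likelihood F-test, two-sided, Benjamini-Hochberg over all genes tested), and differences between backgrounds as interactions. Calls needed an adjusted p of at most 0.05 and 2-fold. GC trends were removed per library by lowess (span 0.3) on Gencode v44 transcripts. Alternatives used DESeq2 1.42.0 and limma 3.58.1 (log2 FPKM with a pseudocount of 0.1 or 1). Scripts were tested on simulated data. Replicates are labelled biological, and how cultures were separated is not stated, so p-values measure the spread between these samples. The floor of 3 counts is 0.0972 to 0.165 CPM and covers counting error only. Values in every library are given for members called in any comparison of 2 groups, or called in one only without the libraries the study set aside. Members and lists were chosen with earlier results of these data known.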

Additional observations from a re-analysis of the deposited data

Results flagged for a closer look

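One result met a rule for a closer look. The hnRNPK difference of IRF1, a transcription factor of the interferon response, differed between backgrounds by 1.47 on the log2 scale (CRLM1 minus Antisense, SE 0.26, edgeR adjusted p = 0.027), higher in 3 of 3 CRLM1_hnRNPK libraries than in any CRLM1_NC library and lower in 3 of 3 Antisense_hnRNPK libraries than in any Antisense_NC library. Without the third CRLM1_hnRNPK library the difference was 1.27.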

How the results depend on the processing

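The number of members called moved by over 1.5 times in these settings, and the cause was not tested. Shares of all genes are not given for most of these settings, so a moved count does not separate the members from all genes. With limma on log2(FPKM + 1) it was 0 against 2 for CRLM1_NC against Ctrl_NC, 4 against 10 for Antisense_NC against Ctrl_NC, 3 against 13 for CRLM1_NC against Antisense_NC and 4 against 14 for hnRNPK in the Antisense background. A pseudocount of 0.1 gave 1 and 8 for the first and the third of these, and a single fit of all 18 libraries gave 1 for the first. Removing the GC trend gave 5 for hnRNPK in the Antisense background. With no filter on low counts 2 members were called against 0 in the Ctrl background.

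Leaving out 1 library at a time gave 1 to 2, 10 to 11, 9 to 13, 0 to 7 (Ctrl_hnRNPK), 0 to 5 (CRLM1_hnRNPK) and 11 to 17 (Antisense_hnRNPK) calls. The high ends for Ctrl_hnRNPK and CRLM1_hnRNPK came without the third library. For the interaction of CRLM1 minus Antisense, 1 member passed, against 7 with no filter, 7 with DESeq2, 6 with the GC trend removed and 8 without the libraries the study set aside. For Antisense minus Ctrl it was 0 against 1 with no filter, 1 with the GC trend removed and 3 without those libraries, and for CRLM1 minus Ctrl 0 against 4 without them. Over all genes, the share passing for CRLM1 minus Antisense went from 0.807% to 12% upward and from 0.315% to 5.41% downward without those libraries. At a minimum of 1 FPKM, 16 members were expressed in CRLM1_hnRNPK against 27.

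Deviations from the group means correlated between -0.063 and 0.0288 for same-numbered libraries and between -0.0649 and 0.0733 for differently numbered ones. Such correlations cannot show whether cultures were handled in pairs. With the replicate number as a block, 4 members passed for CRLM1 minus Antisense, and with the block and the GC trend removed 7, with 2 for Antisense minus Ctrl and 5 called for hnRNPK in the Antisense background. For the 51 combinations of a named member and a comparison, 718 values under the alternatives held no reversal. Of these values 632 stayed on the same side of the threshold, 73 lost it and 13 gained it. Among the gains, 6 came without the third Ctrl_hnRNPK library and 5 without the third CRLM1_hnRNPK library. The members of those 2 comparisons were named because these fits called them, so these gains were fixed in advance. Outside the 51 combinations, some members that passed the adjusted p in a comparison of 2 groups changed sign with the GC trend removed. They were IRF7 in Antisense_NC against Ctrl_NC and in CRLM1_NC against Antisense_NC, ISG15 in Antisense_NC against Ctrl_NC and SP100 with hnRNPK in the Antisense background.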
